A study of Arabidopsis thaliana with 12 samples.

Results

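AGL103 (AT3G18650), AGL26 (AT5G26880) and AGL54 (AT5G27090) are genes named for the MADS-box family of Arabidopsis thaliana, and they were chosen because each had a probe annotated with that gene alone. Of 102 MADS-box genes in the reference table, these 3 were the only ones with such a probe, so they account for 3 of the 691 genes with a probe of their own, on an array of 3439 probes. RNA came from wild-type plants of ecotype Columbia 0, in 6 samples from plants grown at high iron, which the labels describe as oxidative stress, and 6 samples from plants at normal iron, here called control. Each sample gave 1 intensity per probe on a scale that ends at 100. The sources used here do not give the iron dose, the age of the plants, the time of exposure or the tissue. They do not say whether the samples of a group came from separate plants either, and p-values therefore cover the spread between samples only, which could be technical.

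MADS-box proteins are transcription factors that bind DNA as dimers through the MADS domain, at a sequence known as the CArG box. Plants have type II genes, which include the floral organ identity and flowering time regulators, and type I genes, whose known roles in Arabidopsis lie mostly in the female gametophyte, the endosperm and the young seed and whose transcripts are often scarce. AGL103 and AGL54 belong to type I. The locus that carries the name AGL26 here has also been annotated as coding for an RNA methyltransferase of the SpoU family, so the name alone does not establish a MADS domain, and no protein sequence was examined.

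The genes do not all lie on the same chromosome. AGL103 is on chromosome 3. AGL26 and AGL54 are on chromosome 5 with 21 protein-coding genes between them, in a stretch that also holds the MADS-box genes AGL93, AGL101 and AGL53. AGL26, AGL89 and AGL101 are named together with AT5G27944 on a further probe, and AGL53, AGL54 and AGL93 on another. Those 2 probes stand for no single gene and are described separately.

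At high iron AGL103 was higher by 0.62 on the log2 scale (SE 0.11, 1.54-fold, n = 6 per group) and AGL26 by 0.44 (SE 0.10, 1.36-fold), while AGL54 stood at 0.01 (SE 0.15). These values hold after quantile normalization, which gives all arrays the same distribution of intensities. In limma over all 12 samples AGL103 and AGL26 rose (adjusted p = 0.00148 and 0.00496), and AGL54 did not pass (adjusted p = 1). That is 2 of 3 genes called, where 33.4% of all probes were called and 18.2% were called as higher. Samples 1 and 2, 3 and 4, and 5 and 6 of a group resembled each other, as described below, and may be repeat measurements. Over the 6 averages of these pairs 0 of 3 genes passed, where 2.38% of all probes did, with an adjusted p of 0.0979 for AGL103 and 0.127 for AGL26. The unadjusted p there was 0.0106 for AGL103 and 0.0196 for AGL26, so 2 of 3 were higher with a p under 0.05 before adjustment, as were 13.9% of all probes. With the pair as a random block in limma AGL103 passed (adjusted p = 0.0294) and AGL26 did not (0.144), where 14.3% of all probes did.

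The size and the call of each change depended on the scaling of the arrays. As deposited, array medians were 0.352 to 0.446 in the high iron group against 0.555 to 0.618 in the control group, and the median change of all probes was -0.41. Array means were alike, at 0.978 to 1.034 in the high iron group and 1.009 to 1.042 in the control group. The groups therefore differed in the shape of the intensity distribution, a difference that quantile normalization removes. Its cause was not tested. With deposited values AGL103 stood at 0.20 (SE 0.14) and AGL26 at -0.01 (SE 0.11) and neither passed in limma, with adjusted p of 0.255 and 0.967, while AGL54 fell by 0.66 (SE 0.18, adjusted p = 0.0107), where 55.0% of all probes were called and 46.5% were called as lower. Relative to the median change of all probes, the deposited values stood at 0.61 for AGL103, 0.39 for AGL26 and -0.26 for AGL54. After scaling each array to a common median, AGL103 rose by 0.73 (SE 0.10) and AGL26 by 0.51 (SE 0.11), and AGL54 stood at -0.14 (SE 0.16), where 37.5% of all probes were called and 24.8% were called as higher. AGL103 also passed in limma over the 6 averages after median scaling (adjusted p = 0.0490), where 7.44% of all probes were called and 5.93% were called as higher.

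**Figure D1:**
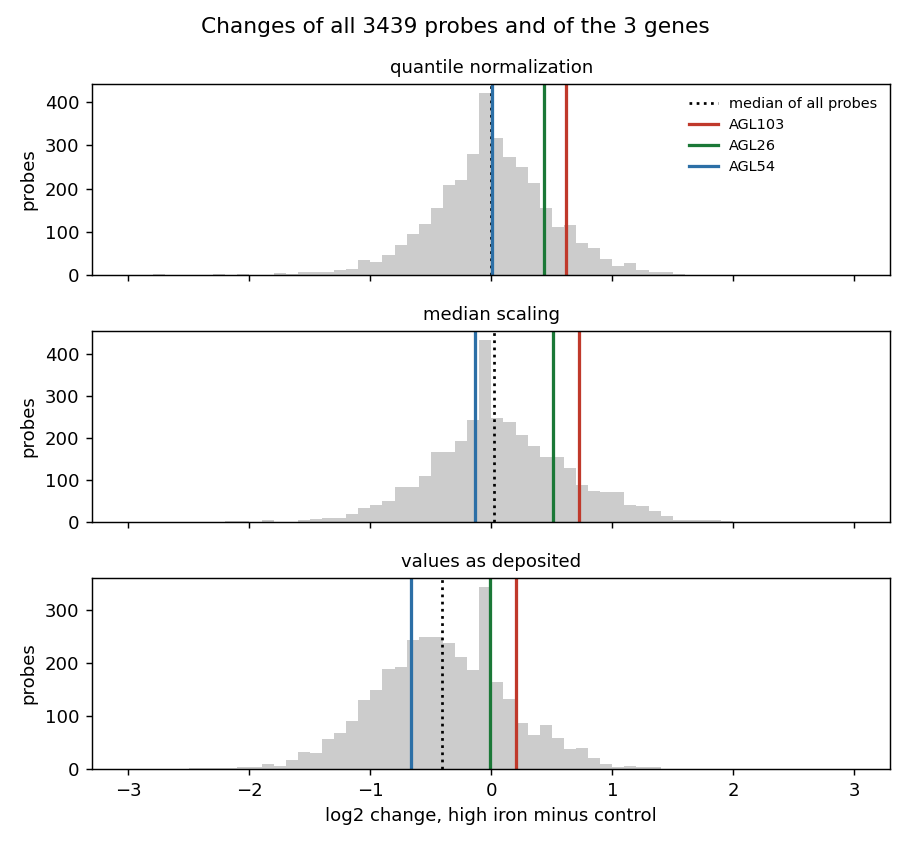
Number of probes by log2 change (high iron minus control, 12 samples) under 3 scalings, with the median of all probes as a dotted line and the 3 genes as coloured lines. AGL103 lay at 0.62, 0.73 and 0.20 from top to bottom, AGL26 at 0.44, 0.51 and -0.01, and AGL54 at 0.01, -0.14 and -0.66. Probes beyond 3 in either direction, 1 at the top and 2 at the bottom, lie outside the plot.

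The median change of the 3 genes was 0.44 after quantile normalization, beside 0 over all probes, and -0.01 with deposited values, beside -0.41 over all probes. By signed change after quantile normalization, AGL103 lay above 90.0% of all probes, AGL26 above 83.4% and AGL54 above 51.5%. With deposited values these shares were 87.6%, 73.3% and 31.6%. The order of the 3 genes by change was therefore the same under both scalings. In bulk RNA a change in the number of cells that hold a transcript and a change in RNA per cell cannot be told apart.

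AGL103, a type I gene, lay above the floor defined below on every array. That floor is not a detection limit, and detection of the transcript was not tested. Its deposited intensity was 0.538 at the lowest, 0.690 at the median and 0.905 at the highest in high iron samples, against 0.525, 0.612 and 0.757 in control samples. On that scale the groups overlapped, and only high iron samples 5 and 6 lay above every control sample. After quantile normalization the lowest, median and highest values were 0.673, 0.800 and 0.963 in high iron samples, against 0.451, 0.538 and 0.636 in control samples. Here the groups did not overlap, which held with high iron higher for 9.77% of all probes. Normalized values lay 6.37 to 9.10 times above the floor in high iron samples and 4.27 to 6.01 times above it in control samples. The floor is the lowest level used, an intensity of 0.106, below which 5 percent of positive values lay.

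The position of AGL103 within each array restates the normalized values, which depend only on this rank. Between 67.7% and 82.6% of probes on an array were dimmer than AGL103 in high iron samples, and between 45.0% and 64.6% in control samples. The brightness of a probe depends on the probe as well as on the transcript, so these shares do not compare the abundance of different genes. A two-sided exact permutation test of the normalized means gave p = 0.0022 over 12 samples and 0.10 over the 6 averages, each the smallest value possible. The same exact permutation test with deposited values gave p = 0.206 over 12 samples and 0.50 over the averages.

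The rise of AGL103 differed between the pairs of sample numbers. It was 0.42 in samples 1 and 2, 0.40 in samples 3 and 4 and 1.04 in samples 5 and 6 (SE 0.10 each, from the spread inside pairs). A moderated F test of iron by pair in limma gave an adjusted p of 0.0215, with 35.0% of all probes called. By sample number the differences were 0.42, 0.41, 0.33, 0.47, 1.09 and 0.99 for the numbers 1 to 6. They were positive in 6 of 6, as they must be where the groups do not overlap. Samples 5 and 6 were the highest of the high iron group, at -0.05 and -0.10 on the log2 scale, and the lowest of the control group, at -1.15 and -1.09. With deposited values the difference was -0.06, -0.09 and 0.75 in the 3 pairs, so that only samples 5 and 6 were clearly higher at high iron on that scale, and the same test gave an adjusted p of 0.00606, with 42.4% of all probes called. Without samples 5 and 6 of both groups AGL103 stood at 0.41 (SE 0.09, limma adjusted p = 0.0155), against 0.75 without samples 1 and 2 and 0.69 without samples 3 and 4. If the samples of a pair are repeat measurements, the spread inside pairs leaves out the spread between plants, and the F test is too lenient.

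**Figure D2:**
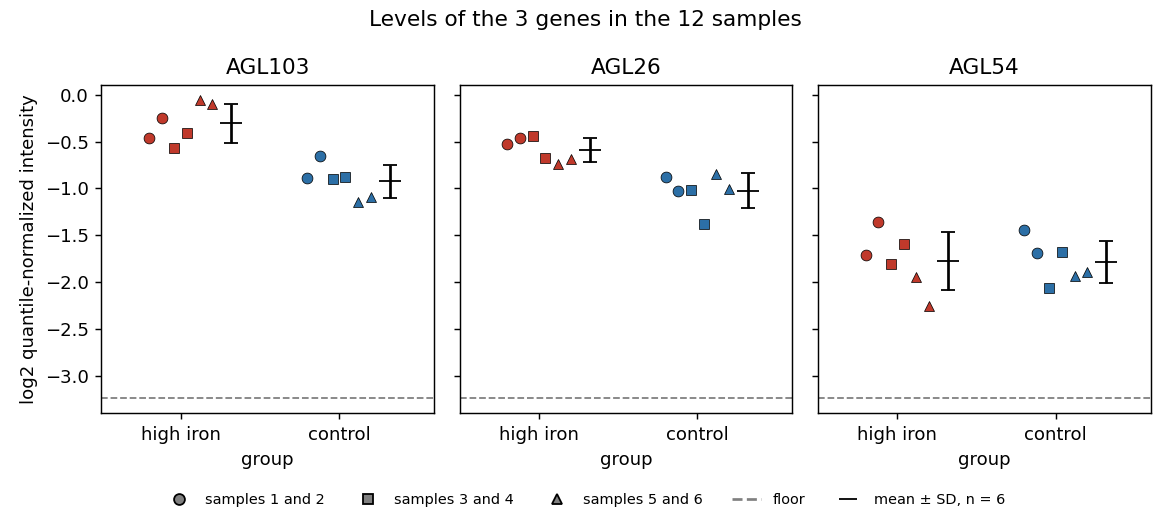
Levels of the 3 genes as log2 quantile-normalized intensity (vertical axis) in 6 high iron and 6 control samples, with symbols for the pairs of sample numbers, the mean ± SD of each group (n = 6) and the floor as a dashed line. High iron samples of AGL103 and AGL26 lay above all control samples, as for 9.77% of all probes. Of those of AGL54, 1 lay above and 1 below all control samples and the others lay among them. No value lay at the floor.

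AGL26 had deposited intensities of 0.484 at the lowest, 0.585 at the median and 0.629 at the highest in high iron samples, against 0.437, 0.593 and 0.677 in control samples. The groups overlapped on that scale, and the means were 0.573 ± 0.052 in high iron samples and 0.582 ± 0.083 in control samples (SD, n = 6). After quantile normalization the lowest, median and highest values were 0.597, 0.661 and 0.739 in high iron samples, against 0.385, 0.496 and 0.555 in control samples. On this scale the groups did not overlap, which held with high iron higher for 9.77% of all probes. These values lay 5.65 to 6.98 times above the floor in high iron samples and 3.64 to 5.25 times above it in control samples. AGL26 thus kept nearly the same deposited intensity while the array medians were lower in high iron samples, and its place within the array moved: 61.0% to 72.3% of probes were dimmer in high iron samples, and 37.1% to 56.6% in control samples.

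For AGL26 the difference was 0.46 in samples 1 and 2, 0.64 in samples 3 and 4 and 0.21 in samples 5 and 6 (SE 0.13 each). The F test of iron by pair in limma did not pass for AGL26 (adjusted p = 0.223). Without overlap of the groups, the difference had to be positive for 6 of 6 sample numbers. The difference ran from 0.11 for number 5 to 0.71 for number 4. With deposited values it was -0.07, 0.14 and -0.11 in the 3 pairs, with 3 of 6 numbers positive. The exact permutation test, two-sided, gave p = 0.0022 for normalized values, the smallest possible over 12 samples, and p = 0.885 for deposited values. Over the 6 averages of normalized values it gave 0.10, the smallest possible there. Control sample 4 was the lowest, at -1.38 on the log2 scale, where the other control samples lay between -1.03 and -0.85, and without it the change was 0.37 (SE 0.08, limma adjusted p = 0.00546). After removal of a running median over 21 neighbouring probe numbers, an alternative chosen after seeing the data, AGL26 had a change of 0.09 (SE 0.11) that missed the threshold in limma (adjusted p = 0.568), whereas AGL103 stood at 0.50 (SE 0.12) and passed (0.00572).

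**Figure D3:**
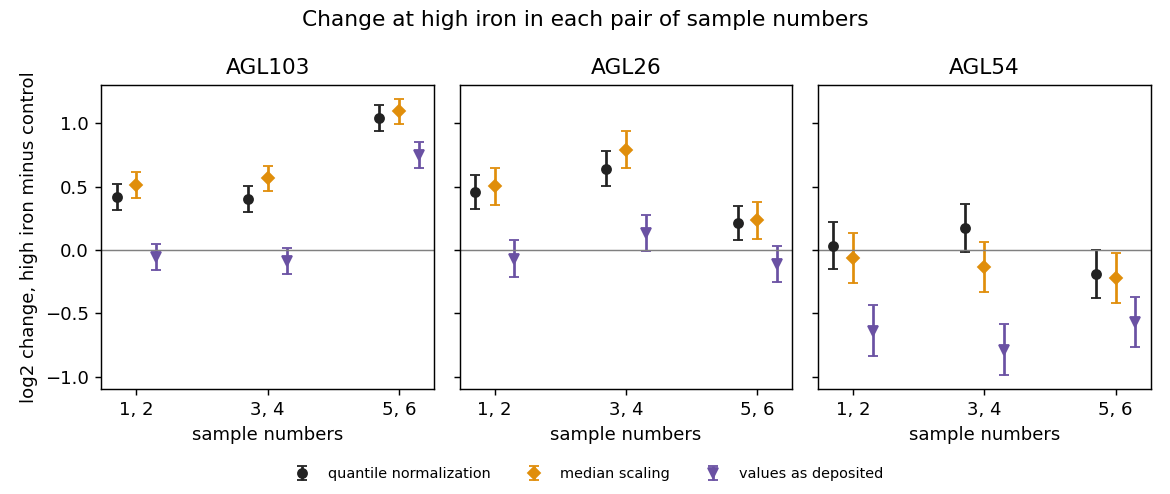
Log2 change (high iron minus control, vertical axis) in each pair of sample numbers for the 3 genes under 3 scalings, with the SE from the spread inside pairs. After quantile normalization AGL103 stood at 1.04 in samples 5 and 6 against 0.42 and 0.40 in the other pairs, while AGL54 stayed between -0.19 and 0.18.

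AGL54, a type I gene, had deposited intensities of 0.161 at the lowest, 0.221 at the median and 0.327 at the highest in high iron samples, against 0.275, 0.338 and 0.483 in control samples. On that scale, where the median change of all probes was -0.41, 5 of 6 high iron samples lay below every control sample. The value at high iron was the lower one for 6 of 6 sample numbers. How many of all probes had such counts was not determined, and a pairing by number is not shown. After quantile normalization the lowest, median and highest values were 0.210, 0.296 and 0.391 in high iron samples, against 0.238, 0.290 and 0.367 in control samples, so the groups overlapped over nearly their whole range. Values lay 1.98 to 3.69 times above the floor in high iron samples and 2.25 to 3.47 times above it in control samples. The 95% interval of the log2 change in limma ran from -0.33 to 0.34 over 12 samples and from -0.49 to 0.50 over the 6 averages, and changes inside these intervals could not be told from 0.

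The place of AGL54 within the array overlapped between the groups. Between 16.2% and 37.8% of probes were dimmer in high iron samples, and between 19.1% and 34.7% in control samples. By pair the difference was 0.03, 0.18 and -0.19 (SE 0.19 each) after quantile normalization, and -0.63, -0.79 and -0.57 (SE 0.20 each) with deposited values, on which the median of all probes fell by 0.41. The fall with deposited values did not pass in limma over the 6 averages (adjusted p = 0.119, where 12.9% of all probes were called), and the two-sided exact permutation test of deposited values gave p = 0.0087 over 12 samples and 0.10 over the averages.

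The probes that name several MADS-box genes went the other way from AGL103 and AGL26. The probe of AGL53, AGL54 and AGL93 had normalized intensities of 0.555 at the lowest, 0.734 at the median and 0.944 at the highest in high iron samples, against 0.841, 1.15 and 1.29 in control samples. The probe of AGL26, AGL89, AGL101 and AT5G27944 had 0.151, 0.223 and 0.411 in high iron samples, against 0.316, 0.458 and 0.549 in control samples. In each of them 4 of 6 high iron samples lay below every control sample, and 6 of 6 sample numbers were lower at high iron. The share of all probes with such counts was not determined, and samples of a pair may be repeat measurements.

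Both probes fell in limma over 12 samples, the probe of AGL53, AGL54 and AGL93 by 0.56 (SE 0.15, adjusted p = 0.0137) and the probe of AGL26, AGL89, AGL101 and AT5G27944 by 0.86 (SE 0.26, adjusted p = 0.0242), where 15.2% of all probes fell. Over the 6 averages 0 of these 2 passed (adjusted p = 0.162 and 0.217), where 1.08% of all probes fell, and 1 of the 2 had an unadjusted p under 0.05 (0.0343 and 0.0586), as did 11.6% of all probes in that direction. Neither passed with the pair as a random block (adjusted p = 0.151 and 0.140), and the fits without samples 3 and 4 of both groups also ended both calls (0.0799 and 0.215). The call of the probe of AGL26, AGL89, AGL101 and AT5G27944 was also lost, narrowly, without high iron sample 1, 2 or 4 or control sample 4, 5 or 6 (limma adjusted p of at most 0.0527). After median scaling the first of them had a change of -0.32 that missed the threshold (adjusted p = 0.189), and the second fell by 1.08. With deposited values they fell by 0.84 and 1.52, and the groups did not overlap, as for 27.1% of all probes in that direction. High iron sample 4 lay below the floor on the deposited and median-scaled values of the probe of AGL26, AGL89, AGL101 and AT5G27944, so those sizes depend on the floor.

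Which transcripts these probes detected was not tested, and a probe that names several genes can hold signal from any of them. After quantile normalization the probe of AGL54 alone stood at 0.01 and the probe that names it with AGL53 and AGL93 at -0.56. The probe of AGL26 alone and the probe that names it with AGL89, AGL101 and AT5G27944 stood at 0.44 and -0.86. The differences between probes were not tested.

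**Figure D4:**
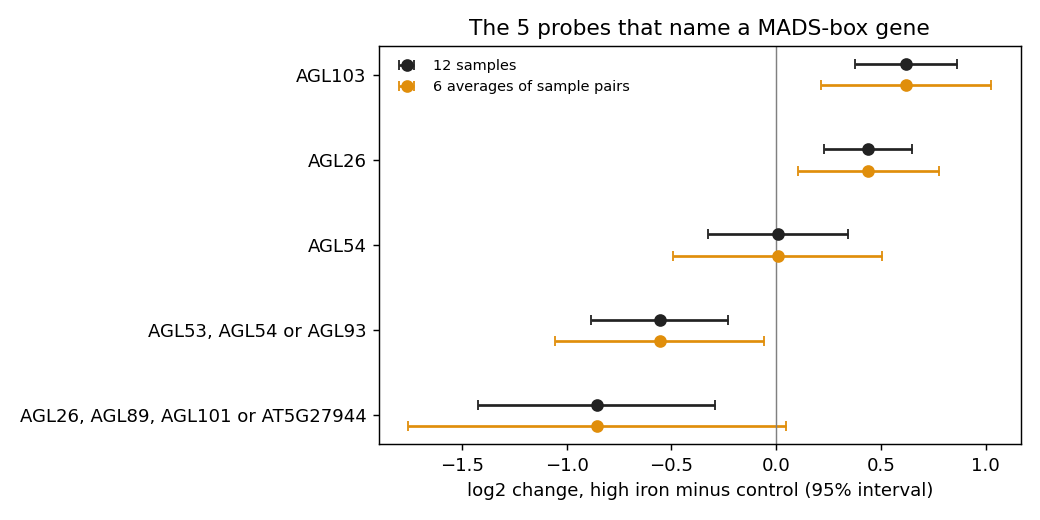
Log2 change (high iron minus control, horizontal axis, after quantile normalization) of the 5 probes that name a MADS-box gene, with unadjusted 95% intervals from limma over 12 samples and over the 6 averages of sample pairs. AGL103 and AGL26 stood at 0.62 and 0.44, AGL54 at 0.01 and the probes of several genes at -0.56 and -0.86.

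AGL103 and AGL26 had a positive correlation over the 12 samples and a negative one inside groups, and AGL54 followed neither. The positive sign comes from both genes being higher in the high iron group after quantile normalization. Over the 12 normalized values the correlation was 0.59 between AGL103 and AGL26, and over deviations from the group means it was -0.47, so inside groups the samples high for AGL103 tended to be low for AGL26. AGL54 had correlations of -0.03 with AGL103 and 0.13 with AGL26. These are descriptions over 12 samples that share pairs and arrays.

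Among 623 other probes with 1 gene that lay at the floor on at most 2 arrays, the patterns most like AGL103 over the 12 values were those of AT3G58830 (r = 0.93), AT5G06990 (0.93) and AT3G44570 (0.91). Over deviations from the group means their r was 0.78, 0.70 and 0.70. For AGL26 they were AT4G22490 (r = 0.90), AT4G21170 (0.90) and AT3G52070 (0.89), with 0.61, 0.61 and 0.63 over deviations. For AGL54 they were RALFL32 (r = 0.82), which codes for a RALF-like signalling peptide, AT1G49870 (0.82) and AT5G26850 (0.79), with 0.82, 0.82 and 0.83 over deviations. The 6 genes most like AGL103 or AGL26 had changes of 0.40 to 1.25 and the 3 most like AGL54 had changes of -0.03 to 0.29, a direction largely fixed by choosing them for their likeness over the same samples.

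Few genes around the MADS-box pathway had a probe of their own. Of 45 flower and meristem regulators 3 were measured, of which 1 rose over 12 samples, 0 fell and 2 missed the threshold, with a median change of -0.14 beside 0 over all probes. A share of 1 in 3 is near the 33.4% of all probes called. LAS, a regulator of axillary meristems, rose by 0.19 (SE 0.06, limma adjusted p = 0.0201, but 0.256 over the 6 averages). SPL, a nuclear protein needed for sporocyte formation, stood at -0.14 (SE 0.15), and SAP, a regulator of flower and ovule development, at -0.19 (SE 0.24) with 3 of 12 values at the floor. With deposited values LAS stood at -0.10. Of 18 Polycomb genes, whose products repress several type I MADS-box genes in seeds, and of 27 iron uptake and storage genes, 0 had a probe with 1 gene.

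The labels name no tissue. Of the markers of endosperm and embryo sac (6 genes), seed (16), pollen (10) and root (7), 0 had a probe with 1 gene, so the presence of these tissues was not analysed here. Type I genes are best known in the embryo sac, endosperm and seed. All 7 markers of green tissue were measured. The photosystem genes PSBW, PSAN, LHB1B2 and PSBY, and also CHLM, lay above the median of the array in all 12 samples. SBPASE did so in 11 samples and PRK in 10. The share of all probes above the median in every sample was not counted, so the tissue is not established. Of the 7, SBPASE rose by 0.48 (SE 0.09, limma adjusted p = 0.00249), CHLM fell by 0.48 (SE 0.10, adjusted p = 0.0049) and 5 did not pass, beside 33.4% of all probes called, and over the 6 averages 0 passed. These values depended on the scaling. With deposited values SBPASE stood at 0.09, CHLM at -0.84, PSBY at 0.01 and PRK at -0.21, beside a median of -0.41 over all probes. PSAN, LHB1B2 and PSBW stood at 0.32, 0.35 and 0.82 on that scale. Their median-scaled changes were 0.84, 0.88 and 1.34, where quantile normalization gave -0.08, -0.0018 and 0.19. The part of these 7 genes in the changes of AGL103 and AGL26 was not tested.

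The likeness of paired sample numbers was measured over all probes, by the correlation of each sample's deviation from its group. It was 0.56 to 0.82 inside pairs, against -0.70 to -0.25 for samples of different pairs in a group. The negative sign of the latter is partly built in, because the subtracted group mean comes from the same 6 samples. High iron samples 3 and 4 had 278 and 271 values of 0, against 123 to 145 in the other samples. AGL103, AGL26 and AGL54 had no value of 0, and none at the floor after quantile normalization.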

How the data were processed

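The values deposited by the authors are linear intensities from 0 to 100. The sources used here do not give the scanning, background correction, scaling or centring, and directions are those of the labelled groups. Gene names come from GEO's platform annotation, which may be outdated, with symbols and gene order from a table of assembly TAIR10.1. Of 3439 probes, 692 had 1 gene, 870 several and 1877 none. The files name no genome build, so no positions are given, and no sequence was used. Intensities were quantile normalized, floored at 0.106 (the 5th percentile of positive values), and their log2 was used. The floor makes changes of dim probes look smaller. All probes were fitted with limma 3.58.1 (lmFit, eBayes with a mean trend, R 4.3.3, statmod 1.5.0 for random blocks), two-sided, at a threshold of 0.05 after Benjamini-Hochberg adjustment across the whole table. Exact permutation tests used scipy 1.17.1. The number of arrays limits the precision.

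Groups and sample numbers came from the sample titles. Deviations of same-numbered samples of the groups had correlations of 0.52, 0.51, 0.21, 0.13, 0.52 and 0.51 for numbers 1 to 6. Samples with different numbers were not compared across the groups, so a pairing by number is not shown. The labels give no pairing either. The 12-sample fit stayed unpaired. Named genes were the 3 genes, the other probes of MADS-box genes, up to 3 members of each other list with the smallest p, and the 3 probes with 1 gene most correlated with each gene. The nearest probes in brightness, also part of the rule, were left out, because levels of different probes are not comparable. A list of SpoU methyltransferases could not be formed, as the tables used here hold no descriptions. The genes and lists were chosen with earlier results of these data known. Alternatives covered scaling, floor, log transform, dim probes, replicates, blocks, array weights and samples left out.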

Additional observations from a re-analysis of the deposited data

Results flagged for a closer look

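In AGL26, the lowest control value after quantile normalization, that of sample 4, was separated from its nearest neighbour by 0.654 of the range of the group. Of 20 groups of values examined 1 stood out like this, which is also the number that chance gives (about 1 in 20).

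The change of AGL103 differed between the 3 pairs of sample numbers (limma F test, adjusted p = 0.0215), at 0.42, 0.40 and 1.04 on the log2 scale, and 35.0% of all probes passed the same test. The labels do not say what the sample numbers mark.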

How the results depend on the processing

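The call of AGL103 (0.62) ended with deposited values (0.20), over the averages of sample pairs (adjusted p = 0.0979), over averages with deposited values (0.20, adjusted p = 0.509) and over averages with the replicate block (0.62, adjusted p = 0.140). That of AGL26 (0.44) ended over averages without and with median scaling (0.44 and 0.51), over averages with the replicate block (0.44, adjusted p = 0.148), with the pair as a random block (0.44) and with the running median removed (0.086), and it turned to -0.014 with deposited values, over samples or averages. The exact permutation test over 6 averages cannot go below 0.10, so it says nothing on either. AGL54 (0.01) turned to -0.66 with deposited values (also over averages), -0.14 with median scaling (also over averages), -0.0070 without samples 1 and 2, -0.069 without samples 3 and 4 and -0.25 with the running median removed, and of these passed only with deposited values over 12 samples. The causes were not tested.

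Leaving out 1 sample gave 0.57 to 0.69 for AGL103 and 0.37 to 0.48 for AGL26, both passing in 12 of 12 fits, and -0.077 to 0.103 for AGL54, which passed in 0. Each of these fits kept the other sample of the pair, which resembled the one left out, so they are a weak check of the calls. The replicate block over 12 samples changed no call of the 3 genes (adjusted p = 0.0105, 0.0107 and 1) or of the 2 probes of several genes. That fit called 1392 of 3439 probes, against 1149 without the block, and it assumes a pairing by number that is not shown.

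Of all probes 1149 passed; 1891 did with deposited values, 491 with the pair as a random block, 82 over averages, 256 and 442 over averages with median scaling and deposited values, 1 over averages with the replicate block, and 249 when only the 692 probes with 1 gene were tested. Leaving out 1 sample gave 999 to 1169. Of the 2 probes of several MADS-box genes, 2 passed; 1 did with median scaling and without samples 1 and 2 or samples 5 and 6, and 0 without samples 3 and 4, with the pair as a random block and over averages under each scaling, also with the replicate block. Leaving out 1 sample gave 1 to 2.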
